A study of Homo sapiens with 18 samples.

Results

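The response of IMR90 cells to the oxidant tert-butyl hydroperoxide (tBHP) was examined in cells that had been pre-incubated with cNSF-HA, using the 3 cNSF-HA + tBHP libraries and the 3 cNSF-HA libraries, 6 of the 18 RNA-seq libraries of the series. IMR90 is a widely distributed line of human primary lung fibroblasts. cNSF-HA is hyaluronan made by naked mole-rat skin fibroblasts and mixed with heat-inactivated hyaluronidase, so that it stays long, and it was given at 20 μg/ml for 6 h. The other libraries came from cells pre-incubated with PBS or with fNSF-HA, the same hyaluronan after partial digestion by hyaluronidase, in 3 libraries each with and without tBHP. In the tBHP groups the medium was removed after the pre-incubation and cells received 200 μM tBHP for 1 h and were collected 5 h later, whereas the groups without tBHP were collected at the end of the pre-incubation. The 2 cNSF-HA groups therefore differed in oxidant, in medium change and in time of collection, and these cannot be told apart.

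tBHP is an organic peroxide that oxidizes thiols and lipids. Cells answer such peroxides with NRF2, which turns on antioxidant genes once its inhibitor KEAP1 is oxidized, with p53, which turns on genes for cell cycle arrest and apoptosis, and with the kinases of the integrated stress response, which favour translation of ATF4 and its partner CHOP. Hyaluronan is a long sugar chain of the extracellular matrix that cells bind through receptors such as CD44.

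The 6 libraries held between 21130667 and 23137884 reads counted in genes. All 15 fibroblast markers passed the filter on level, and of the markers of other cell types the epithelial ESRP1, KRT5, SCGB1A1, SFTPB and SFTPC and the endothelial CDH5 and PECAM1 were at 0 in all 6 libraries. The summed normalized counts of 8 endothelial markers were 1323 to 1400 without and 769 to 991 with tBHP, those of 10 leukocyte markers 35.2 to 45.0 and 77.1 to 87.4, and those of 10 epithelial markers 1604 to 1701 and 1371 to 1619. Among their few members above the filter, 0 of 2 epithelial, 2 of 3 endothelial (1 higher and 1 lower) and 1 of 1 leukocyte markers were called (limma, adjusted p under 0.05), where 50.8% of all genes tested were. The part of these markers in the results was not tested. Transcripts of the mitochondrial genome took 2.48 to 2.57% of reads without and 2.84 to 2.85% with tBHP.

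The libraries with tBHP varied more among themselves. The median SD of a gene on the log2 scale was 0.0702 in the cNSF-HA group and 0.153 in the cNSF-HA + tBHP group, and transcript GC content and length accounted for 2.56% and 20.5% of the variance within each group. Replicate 3 of cNSF-HA + tBHP stood apart. With genes split by transcript length into 5 equal bins, its shortest bin lay 0.17 above the group mean on the log2 scale and its longest bin had a deviation of -0.19, while replicates 1 and 2 tilted the other way. FN1, which encodes fibronectin, measured 631283, 575382 and 394014 normalized counts in the 3 libraries with tBHP. COL6A3, a collagen VI chain, measured 205014, 193453 and 133595. Where leaving this library out moved a gene list's count of rises or falls by over 1.5 times, the count without it is given as well.

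Expression of 50.8% of the genes tested differed between cNSF-HA + tBHP and cNSF-HA cells. Of 13686 genes with a mean of at least 10 normalized counts over all 18 libraries, 3285 were higher (24%) and 3662 were lower (26.8%) in cNSF-HA + tBHP than in cNSF-HA cells at an adjusted p under 0.05 (limma on log2(normalized count + 1), Benjamini-Hochberg adjustment). Most changes were moderate, with a median log2 change of 0.51 among the genes that rose and -0.60 among those that fell. A log2 change of at least 1 was reached by 482 of the genes that rose (3.52% of genes tested) and 615 of those that fell (4.49%), and one of at least 2 by 80 (0.585%) and 38 (0.278%). Without replicate 3 of cNSF-HA + tBHP, 2897 genes were higher and 3298 lower. In bulk RNA a change in the RNA of every cell and the loss of some cells cannot be told apart.

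Changes are ranked here among called genes with a mean of at least 100 normalized counts over all 18 libraries and no overlap between the groups. A gene below 100 in the libraries with or without tBHP meets that level only through libraries where it is higher. This held for GDF15, ATF3 and INHBE among the rises and LRRN3 among the falls, so their place in the ranking depended on those libraries. By this rule the largest rise was in GDF15, a stress-induced cytokine of the TGF-beta superfamily. It measured 43.9, 33.2 and 34.1 normalized counts in the 3 cNSF-HA libraries and 3701, 3949 and 5101 in the 3 cNSF-HA + tBHP libraries, a log2 change of 6.80 ± 0.28 (SE; limma, adjusted p = 2.8e-12). Every library with tBHP was far above every library without it. ATF3, a stress-induced transcription factor, went from 32.4, 42.0 and 39.3 to 514, 619 and 619, a log2 change of 3.91 ± 0.13. TRIB3, a pseudokinase induced by ATF4 and CHOP, went from 283, 281 and 277 to 3506, 3700 and 4144 (3.75 ± 0.12). Both were again separated by far more than the spread within either group. INHBE, an inhibin subunit gene, went from 10.5, 12.7 and 6.20 to 208, 218 and 201 (4.33 ± 0.29). The 15 largest rises by this rule also held AKR1C1, an aldo-keto reductase (3.65), G0S2, an inhibitor of lipolysis (3.62), the peptide hormone gene ADM2 (3.38), OSGIN1, a growth inhibitor induced by oxidants (3.32), BBC3, the p53-induced BH3-only gene PUMA (3.28), the ligand gene BMP6 (3.20), and DDIT4 (3.15), an inhibitor of mTORC1. CDKN1A, the CDK inhibitor p21, rose from between 5130 and 5713 to between 42582 and 45932 normalized counts. The cNSF-HA and cNSF-HA + tBHP groups did not overlap for any of these genes, as the rule required, and over all genes tested they did not overlap for 63.7%, with 31.4% higher and 32.3% lower.

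**Figure D1:**
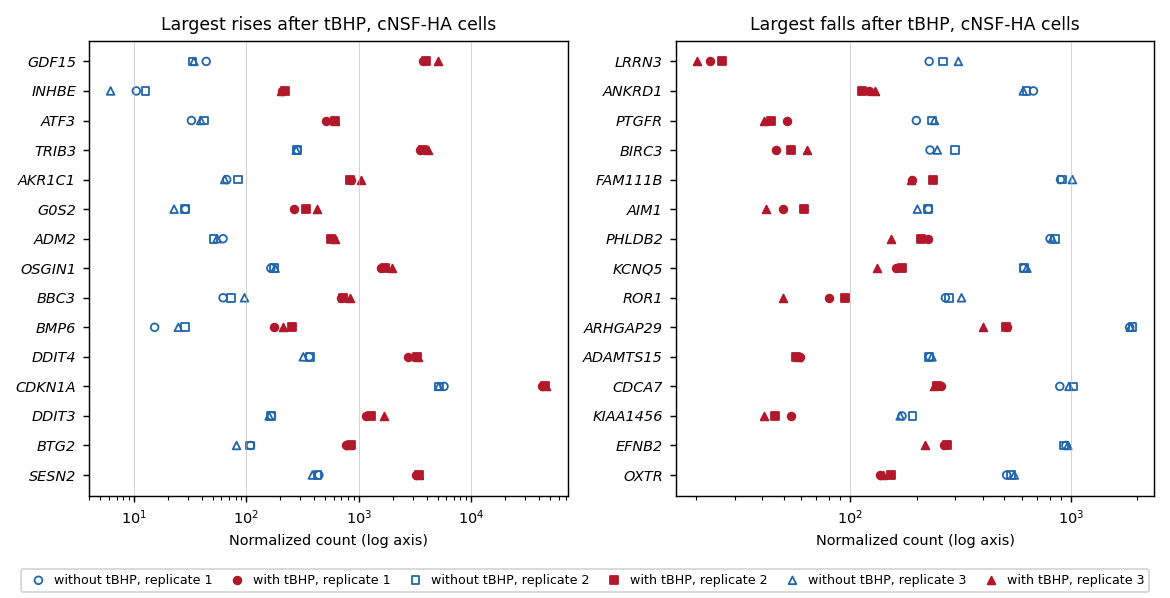
Normalized counts (log axis) of the 15 largest rises and the 15 largest falls in the 3 cNSF-HA libraries (open blue) and the 3 cNSF-HA + tBHP libraries (filled red), with one marker shape per replicate number. GDF15 lies between 33.2 and 43.9 without and between 3701 and 5101 with tBHP, and no gene shown has overlapping groups.

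By the same rule the largest fall was in LRRN3, a leucine-rich repeat membrane protein gene. It measured 228, 263 and 309 normalized counts without and 23.2, 26.4 and 20.3 with tBHP, a log2 change of -3.46 ± 0.19 (limma, adjusted p = 1.3e-10). ANKRD1, a target of YAP and TEAD, went from 677, 628 and 608 to 121, 114 and 129. PTGFR, the prostaglandin F receptor gene, went from 199, 235 and 241 to 51.7, 43.6 and 40.7. BIRC3, the inhibitor of apoptosis cIAP2, fell by 2.23 on the log2 scale, FAM111B by 2.20, the oxytocin receptor gene OXTR by 1.89, the receptor gene ROR1 by 1.98 and the ephrin gene EFNB2 by 1.91. The libraries with tBHP were below all libraries without it for each of these genes. Very abundant genes that passed the test moved by less. THBS1 and the mitochondrial MT-CO1 fell by 0.82 and 0.54 on the log2 scale, and GAPDH and EEF1A1 rose by 0.58 and 0.45.

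Genes of the NRF2 pathway rose. Of 34 listed targets, all tested, 33 were higher and 0 lower, against 24% and 26.8% of all genes, and their median log2 change was 1.21. HMOX1, heme oxygenase 1, measured 6587, 6024 and 6019 normalized counts without and 42066, 48357 and 49430 with tBHP (log2 change 2.91 ± 0.10; limma, adjusted p = 3.9e-13). TXNRD1, thioredoxin reductase, went from between 10634 and 11113 to between 27601 and 34200, with replicate 3 the lowest of the 3. GCLM, a subunit of the enzyme that limits glutathione synthesis, went from between 1425 and 1474 to between 2662 and 2868. AKR1B10, another aldo-keto reductase, rose by 3.40. AKR1C1, AKR1C2 and AKR1C3 are near-identical copies whose reads can be split between them, so their separate values are uncertain. SRXN1, sulfiredoxin, was the member that missed the threshold, at 19.1, 17.6 and 12.4 without and 22.1, 27.4 and 29.5 with tBHP (log2 change 0.67 ± 0.28, adjusted p = 0.055). It was called by edgeR (adjusted p = 0.0286) and not by DESeq2 (adjusted p = 0.0735). Its log2 change was 2.35 in PBS cells and 0.86 in fNSF-HA cells, and it was called in both. The difference of -1.68 ± 0.40 between the cNSF-HA and PBS responses had an unadjusted p of 0.00048 and an adjusted p of 0.999.

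Of 20 superoxide and peroxide scavengers, 11 rose (55%, against 24% of all genes) and 3 fell (15%, against 26.8%). Their median of 0.46 was 0.13 after the trends with GC content and length were removed. SOD1, the cytosolic superoxide dismutase, went from between 2546 and 2602 to between 4245 and 5640 normalized counts, and GPX3 from between 16.2 and 27.4 to between 70.0 and 86.4. SOD2, its mitochondrial counterpart, was lower by 0.45 on the log2 scale, but by 0.02 with an adjusted p of 0.83 after those trends were removed. With the trends removed, 7 scavengers rose and 2 fell.

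Targets of p53 rose as well. Of 40 targets tested, 32 were higher and 3 lower, with a median log2 change of 0.97. MDM2, the ubiquitin ligase that degrades p53, measured 1735, 1766 and 1776 normalized counts without and 4389, 4555 and 3754 with tBHP (log2 change 1.26 ± 0.12; limma, adjusted p = 2.1e-07). BTG2, an antiproliferative gene, rose by 3.04 and SESN2, an inhibitor of mTORC1 signalling, by 3.00. ZMAT3 and KITLG, with log2 changes of 0.33 and 0.20, did not pass the test. Among 14 genes of the BCL2 family, 7 rose (50%, against 24% of all genes) and 1 fell (7.1%, against 26.8%). The proapoptotic BBC3, PMAIP1 (NOXA) and BMF rose by 3.28, 1.19 and 1.44, and the antiapoptotic BCL2 was lower, at 82.1, 61.6 and 78.6 without and 34.8, 46.7 and 25.4 with tBHP. Of 7 CDK inhibitors, CDKN1A and CDKN2B rose and CDKN2C and CDKN3 fell (28.6% each way), near the 24% and 26.8% of all genes.

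The ATF4 and CHOP list had the highest median of the lists examined, 1.64. Of its 34 tested members 31 were higher and 2 lower, against 24% and 26.8% of all genes. DDIT3, which encodes CHOP, rose by 3.04 and DDIT4 by 3.15. CHAC1, a glutathione-degrading enzyme gene, went from 633, 604 and 555 to 3178, 3421 and 3511 normalized counts. ASNS, asparagine synthetase, went from 1788, 1727 and 1577 to 5198, 5534 and 6154. The 3 libraries with tBHP lay above the others for both genes. SLC3A2, the heavy chain of amino acid and cystine transporters, went from 4369, 4092 and 4141 to 15016, 15902 and 18833. The amino acid transporter gene SLC7A1 did not pass the test. Of 20 cytosolic tRNA synthetases, which charge tRNAs with amino acids, 13 rose and 3 fell, with a median of 0.40. CARS rose by 1.41, AARS by 1.26, GARS by 1.19 and WARS by 1.18, and AARS measured 3979, 3774 and 3813 normalized counts without and 9144, 9346 and 9122 with tBHP.

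Chaperones of the endoplasmic reticulum rose in 16 of 19 cases, and 0 fell, against 24% and 26.8% of all genes, with a median of 0.54. HSPA5 (BiP), the main chaperone of this compartment, measured 21264, 20873 and 20555 normalized counts without and 60542, 63933 and 64023 with tBHP (log2 change 1.59 ± 0.05; limma, adjusted p = 1.6e-13). HERPUD1, which acts in degradation of misfolded proteins, rose by 1.45, the transcription factor XBP1 by 1.21, CALR by 0.57 and HSP90B1 by 0.28, the last of which was 0.05 with an adjusted p of 0.612 after quantile normalization. CANX, at 19859, 19880 and 19997 without and 24173, 24016 and 19671 with tBHP, did not pass the test, and its value in replicate 3 lay below all 3 libraries without tBHP. Of 20 cytosolic heat shock genes, 14 rose and 3 fell. The small heat shock protein genes HSPB8 and CRYAB rose by 2.19 and 1.28, while HSPA8, the constitutive HSC70, went down from 65402, 62936 and 61110 to 47276, 50780 and 49916 normalized counts. HSPA1A and HSPA1B, near-identical copies whose reads a counter can leave out, were below the filter. Of 31 proteasome subunits 23 rose and 0 fell, with 2 lower without replicate 3 of cNSF-HA + tBHP and 1 lower with the trends removed. Of 19 autophagy and lysosome genes 12 rose and 1 fell, with 10 and 2 without that library, and the genes that rose included the receptor gene SQSTM1 (2.14), GABARAPL1 (1.89) and the kinase gene ULK1 (1.68).

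Promoters of these groups were searched for published motifs on both strands, from 250 bases before to 50 after the start of the gene, in the RefSeq table of build GRCh38.p14, which matched 10208 of the 13686 genes tested (74.6%). The endoplasmic reticulum stress element (ERSE, CCAAT and, after 9 bases, CCACG) was found in 6 of 18 chaperone promoters and in 0.137% of all promoters of tested genes. The C/EBP-ATF composite element (CARE, TGATGCAA) was found in 5 of 12 tRNA synthetase promoters but in 1 of 27 promoters of the ATF4 and CHOP list, and in 0.47% of all. The core of the antioxidant response element (ARE, TGACNNNGC) was found in 6 of 24 NRF2 target promoters, 9 of 27 of the ATF4 and CHOP list and 15.3% of all. AP-1 sites (TGAGTCA), whose reverse complement lies within the ARE form TGACTCAGC, were found in 3 of 24 NRF2 target promoters, 7 of 50 promoters of genes that rose by at least 2, 4.51% of those of genes that rose, 2.59% of those of genes that fell and 3.06% of all. A match shows only that these letters are present. The windows below are shown because their genes are among those described above. They were chosen after the values were seen, run 5′ to 3′ on the strand of the gene and end before the gene start, with each match of the named motif in either orientation in capitals.
HSPA5: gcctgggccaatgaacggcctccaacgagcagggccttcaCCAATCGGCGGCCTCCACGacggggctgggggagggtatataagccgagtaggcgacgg
XBP1: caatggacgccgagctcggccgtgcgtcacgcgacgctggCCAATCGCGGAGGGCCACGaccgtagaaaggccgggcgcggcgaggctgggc
HSP90B1: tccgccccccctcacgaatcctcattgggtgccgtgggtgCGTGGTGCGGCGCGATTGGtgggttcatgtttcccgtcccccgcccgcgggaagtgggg
CALR: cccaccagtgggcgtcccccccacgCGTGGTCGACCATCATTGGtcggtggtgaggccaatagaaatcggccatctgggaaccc
AARS: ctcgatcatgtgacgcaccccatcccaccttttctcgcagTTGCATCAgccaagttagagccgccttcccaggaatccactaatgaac
CHAC1: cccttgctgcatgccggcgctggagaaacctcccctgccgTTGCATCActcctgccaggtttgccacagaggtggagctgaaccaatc
TXNRD1: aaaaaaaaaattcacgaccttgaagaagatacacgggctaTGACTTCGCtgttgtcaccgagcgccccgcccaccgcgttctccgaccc
GCLM: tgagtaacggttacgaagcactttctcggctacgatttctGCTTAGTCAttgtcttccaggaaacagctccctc
SLC3A2: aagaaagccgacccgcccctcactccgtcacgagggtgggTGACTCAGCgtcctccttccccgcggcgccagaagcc

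The ERSE started 66 bases before the start of HSPA5 (chr9:125241351-125241449, minus strand) and 52 before that of XBP1 (chr22:28800570-28800661, minus strand), and lay in reverse orientation 89 bases before HSP90B1 (chr12:103930281-103930379, plus strand) and 225 before CALR (chr19:12938359-12938442, plus strand). The CARE lay in reverse orientation 187 bases before AARS (chr16:70289646-70289733, minus strand) and 209 before CHAC1 (chr15:40953222-40953309, plus strand). The ARE core lay 99 bases before TXNRD1 (chr12:104215640-104215728, plus strand), 34 before GCLM in reverse orientation (chr1:93909431-93909504, minus strand) and 37 before SLC3A2 (chr11:62881622-62881698, plus strand), where it took the form that also holds an AP-1 site. All windows lie upstream of the gene start that the table lists first, which was the start used for every gene.

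Genes of cell division fell. Of 33 G2/M genes, 27 were lower (81.8%, against 26.8% of all genes) and 0 higher (against 24%), with a median log2 change of -0.73. HMMR, which encodes a hyaluronan-binding protein of the mitotic spindle, measured 1604, 1730 and 1687 normalized counts without and 414, 541 and 446 with tBHP (log2 change -1.85 ± 0.14; limma, adjusted p = 9.4e-09). CENPE, a kinetochore motor, went from 2734, 2930 and 2899 to 987, 937 and 792. DLGAP5, a spindle protein gene, went from 2635, 2692 and 2666 to 841, 987 and 906. These genes were lower in each library with tBHP than in any without it. PLK1, a mitotic kinase, went from 4644, 4297 and 4416 to 2417, 2519 and 2436. Its groups did not overlap either. KIF2C and PTTG1, with log2 changes of -0.12 and 0.04, did not pass the test. Of 34 S-phase genes 17 fell (50%) and 3 rose (8.8%). CCNE2, cyclin E2, fell by 1.46, and PCNA, the polymerase clamp, which is also a p53 target, rose by 0.52. Of 27 genes of double-strand break and Fanconi repair 17 fell (63.0%), among them FANCB (-1.62) and the kinase gene ATR (-1.17), and 3 rose (11.1%). Their median of -0.28 was -0.12, with 13 lower, after the trends with GC content and length were removed. The cell cycle homology region (CHR, TTTGAA) was found in 18 of 28 G2/M promoters and in 9.73% of all, 7.23% of those of genes that rose and 12.8% of those of genes that fell. The CCAAT box was found in 23 of 28 and in 36.9%. These windows are shown because the 4 genes fell and hold the CHR upstream of their start.
HMMR: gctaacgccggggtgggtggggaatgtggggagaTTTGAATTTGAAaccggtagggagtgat
BUB1B: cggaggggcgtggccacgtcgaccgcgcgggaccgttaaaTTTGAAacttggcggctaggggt
PLK1: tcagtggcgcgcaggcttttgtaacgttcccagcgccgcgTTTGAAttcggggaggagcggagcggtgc
DLGAP5: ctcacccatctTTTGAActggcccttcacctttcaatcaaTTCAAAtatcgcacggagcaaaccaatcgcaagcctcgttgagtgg

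The matches began 28 and 22 bases before HMMR (chr5:163460570-163460631, plus strand), 23 before BUB1B (chr15:40161006-40161068, plus strand), 29 before PLK1 (chr16:23678820-23678888, plus strand) and 138 and 109 before DLGAP5 (chr14:55191649-55191734, minus strand), the last of these in reverse orientation. BUB1B, a spindle checkpoint kinase gene, fell by 1.06.

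**Figure D2:**
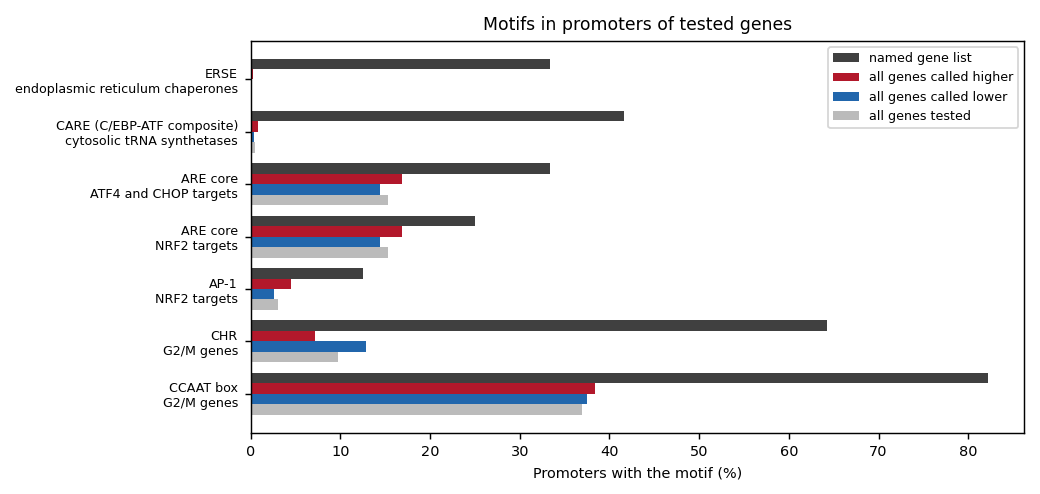
Percent of promoters with a motif in the named gene list (dark grey), in all genes called higher (red), all called lower (blue) and all genes tested (light grey). The CHR was in 64.3% of G2/M promoters and 9.73% of all, and the ERSE in 33.3% of chaperone promoters and 0.137% of all.

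Immediate early genes, which respond quickly to growth factors and stress, were higher 5 h after the end of tBHP exposure. Of 23 immediate early genes, 20 rose (87.0%, against 24% of all genes) and 2 fell (8.7%, against 26.8%), with a median of 0.86. Without replicate 3 of cNSF-HA + tBHP 17 rose and 1 fell. With the trends removed 16 rose and the median was 0.45. FOS, an AP-1 subunit gene, measured 30.5, 23.5 and 30.0 normalized counts without and 93.8, 90.3 and 115 with tBHP (log2 change 1.80 ± 0.20; limma, adjusted p = 1.3e-06). FOSB rose by 2.19, NR4A3 by 1.82 and KLF4 by 1.73. Of 14 feedback inhibitors of the MAP kinases 7 rose (50%), with DUSP5 (1.13) and SPRY4 (1.09) at the top, and 2 fell (14.3%). Of 12 Kruppel-like factors 6 rose (50%) and 2 fell (16.7%). Without replicate 3 of cNSF-HA + tBHP 1 member of each of these lists fell. Of 5 genes for the EGF receptor and its ligands the ligand gene AREG (2.10) and 2 others rose, while EGFR, with a log2 change of -0.25, did not pass the test.

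A list of metallothioneins, which bind zinc and copper, and of genes of zinc transport and its control had a median of 0.94, with 6 of 9 tested members higher and 1 lower. MT1G was at 0, 1.95 and 0 normalized counts without tBHP, that is 2 reads in all, and at 197, 181 and 240 with it. Its values without tBHP lay below the filter on level, so it was tested only through libraries where it is higher. Of 11 listed genes 9 passed that filter, and listed genes that stayed below it were not tested. The counts and the median of this list therefore depend in part on the filter. MT1X went from 101, 110 and 83.7 to 332, 339 and 438 (log2 change 1.90 ± 0.15; limma, adjusted p = 2e-08). MT2A, by far the most abundant member, at 21927, 19643 and 17549 without and 24662, 24572 and 25224 with tBHP, did not pass the test although the groups did not overlap. These genes are close copies and may share reads.

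Of 18 NF-kB targets and chemokines 7 rose (38.9%) and 6 fell (33.3%), against 24% and 26.8% of all genes, and their median of 0.25 was -0.03 after the trends with GC content and length were removed. IL6 went from 178, 171 and 182 to 421, 402 and 444 normalized counts. The chemokine gene CXCL8 went from 20.0, 10.8 and 11.4 to 47.4, 28.4 and 53.9, and CXCL3 rose by 2.17. TNFAIP3, a feedback inhibitor of NF-kB, went down from 524, 523 and 589 to 277, 245 and 228, and BIRC3 fell by 2.23. None of IL6, CXCL8 and TNFAIP3 had overlapping groups. Of 15 interferon-stimulated genes 6 rose (40%), among them IRF1 (1.20), and 2 fell (13.3%). Their median of 0.23 was 0.09 after the trends were removed. Of 18 feedback genes of TGF-beta and BMP signalling 8 rose (44.4%) and 5 fell (27.8%, near the share of all genes), and the ligand genes TGFB3 and TGFB2 changed by 1.37 and -1.31. Of 14 Notch and Wnt pathway genes 3 rose (21.4%, near the share of all genes) and 7 fell, among them HES1 (1.41) and the ligand gene WNT5A (-0.84).

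Targets of YAP and TEAD, which report on adhesion and cell tension, fell in 13 of 16 cases and rose in 0, with a median of -0.38. CTGF measured 31057, 31665 and 32253 normalized counts without and 19810, 19034 and 20354 with tBHP (log2 change -0.68 ± 0.05; limma, adjusted p = 6.1e-09), and F3, tissue factor, fell by 1.34. Without replicate 3 of cNSF-HA + tBHP the count was 10. Of 20 integrin and focal adhesion genes 3 rose and 7 fell (35.0%, against 26.8% of all genes), led by ITGB8 (-1.26). Of 15 contractile genes 3 rose, a share not far from the 24% of all genes, and 6 fell, led by LMOD1 (-1.68) and the kinase gene MYLK (-1.39). Without replicate 3 of cNSF-HA + tBHP 1 contractile gene rose and 6 fell. Of 18 collagens 2 rose (11.1%) and 6 fell (33.3%, against 26.8% of all genes), COL7A1 (1.10) and COL3A1 (-0.48) among them, with 3 and 4 without that library and 3 and 12 with the trends removed. COL1A1, at 269412, 265144 and 269707 without and 293994, 276413 and 266057 with tBHP, did not pass the test and its groups overlapped. Of 12 matrix metalloproteinases and their inhibitors 5 rose (41.7%), including MMP1 (0.82), and 4 fell (33.3%, against 26.8% of all genes), including the aggrecanase gene ADAMTS5 (-1.21). Their median of 0.20 was 0.00 after the trends were removed. Among the 15 fibroblast markers 1 rose and 7 fell, and the small proteoglycan gene LUM fell by 1.18.

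Genes of hyaluronan metabolism fell in 7 of 12 tested cases (58.3%, against 26.8% of all genes) and rose in 2 (16.7%, against 24%), with a median of -0.48. Without replicate 3 of cNSF-HA + tBHP 4 fell and 2 rose, nearer the shares of all genes. CD44, the main receptor, measured 31777, 32705 and 31857 normalized counts without and 33969, 33545 and 30628 with tBHP (log2 change 0.03 ± 0.06; limma, adjusted p = 0.74), and its groups overlapped, while after quantile normalization its log2 change was -0.28 with an adjusted p of 0.0017. HAS2, the main hyaluronan synthase of fibroblasts, went from 9911, 10234 and 10731 to 7720, 7981 and 6667, a log2 change of -0.47 ± 0.11 that was -0.04 with an adjusted p of 0.54 once the trends with GC content and length were removed. CEMIP, which takes part in hyaluronan breakdown, went from 273, 272 and 258 to 131, 120 and 61.0. VCAN, a hyaluronan-binding proteoglycan gene, went from 20016, 20775 and 20056 to 13760, 13259 and 7598. In both genes replicate 3 had the lowest value with tBHP. TNFAIP6, a hyaluronan-binding protein gene, rose by 0.56. HYAL3 rose by 0.67, but by 0.27 with an adjusted p of 0.13 after the trends were removed, and TMEM2 and HAPLN3 did not pass the test. The calls of HAS3, HYAL2 and HAPLN1, at log2 changes of -0.93, -0.49 and -0.87, were lost when any of several libraries was left out, while the changes kept their sign. Without replicate 3 of cNSF-HA + tBHP they were -0.65, -0.49 and -0.61 with adjusted p-values (limma) of 0.198, 0.0556 and 0.172, and without replicate 1 of cNSF-HA they were -0.78, -0.48 and -0.72 with 0.152, 0.0604 and 0.141. The call was also lost without replicate 3 of cNSF-HA for HAS3 (-0.75) and HAPLN1 (-0.81), without replicate 2 of cNSF-HA for HYAL2 (-0.48), without replicate 1 of cNSF-HA + tBHP for HAS3 (-1.05), and without replicate 2 of cNSF-HA + tBHP for HYAL2 (-0.47) and HAPLN1 (-0.86).

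Of 16 genes of the circadian clock 4 rose, a share near the 24% of all genes, and 9 fell (56.2%, against 26.8%). ARNTL (BMAL1), the activator of the clock, went from 423, 411 and 384 to 1071, 1131 and 1064 normalized counts (log2 change 1.42 ± 0.08; limma, adjusted p = 3e-10). NR1D1, a nuclear receptor that represses ARNTL, went from between 270 and 288 to between 569 and 646. PER3, a repressor, went down from 431, 441 and 437 to 173, 155 and 110. The groups also differed in time of collection, as stated above, and its part was not tested.

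Metabolic groups were divided. Of 25 HIF1 targets and glycolysis genes 15 rose (60%, against 24% of all genes), led by NDRG1 (2.78) and the growth factor gene VEGFA (1.11), and 4 fell (16%). Of 21 sterol and lipid synthesis genes 13 fell and 2 rose, with 12 and 1 without replicate 3 of cNSF-HA + tBHP, and MSMO1, a sterol oxidase gene, went from 646, 671 and 734 to 273, 269 and 345 normalized counts (log2 change -1.22 ± 0.17; limma, adjusted p = 1.5e-05). In polyamine metabolism 5 of 10 genes rose and 3 fell, the latter a share near the 26.8% of all genes. SMOX and SAT1, which break polyamines down, rose by 1.97 and 1.20, and AMD1 and AZIN1, which favour their synthesis, fell by 1.32 and 0.80. Of 5 arrestins related to the thioredoxin inhibitor TXNIP 3 rose, ARRDC2 by 1.22 and TXNIP by 0.44, and 2 rose without replicate 3 of cNSF-HA + tBHP.

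Genes of the translation machinery, of RNA processing and of the mitochondrial genome follow. Of 79 cytosolic ribosomal proteins 74 rose and 2 fell, with a median of 0.49, and the median was 0.39 with 66 risers after the trends were removed. Without replicate 3 of cNSF-HA + tBHP 64 rose and 3 fell. RPS27, for example, went from between 6106 and 6654 to between 10281 and 13371 normalized counts, with replicate 3 the highest. RPL36A, which has close copies in the genome, was lower, at 159, 148 and 133 without and 76.9, 76.1 and 68.1 with tBHP. Of 30 ribosome biogenesis genes 14 fell, led by UTP20 (-1.03) and including the helicase gene DDX21 (-0.84), and 2 rose, with 15 and 1 without replicate 3 of cNSF-HA + tBHP. Of 14 snoRNA host transcripts 5 rose (35.7%) and 4 fell (28.6%), not far from the 24% and 26.8% of all genes, and 1 rose and 5 fell without replicate 3 of cNSF-HA + tBHP. Of 17 SR proteins and CLK kinases 4 rose (23.5%) and 3 fell (17.6%), and 12 rose and 2 fell after the trends were removed. Of 457 zinc finger genes 115 rose (25.2%) and 94 fell (20.6%), again near the shares of all genes. After the trends were removed 172 rose and 57 fell, and without replicate 3 of cNSF-HA + tBHP 108 rose and 65 fell. Among the 13 mRNAs of the mitochondrial genome 3 rose (23.1%, near the share of all genes) and 5 fell (38.5%). MT-ND1, encoded near the start of the heavy-strand transcript, went from 20654, 21347 and 21317 to 33424, 35130 and 32146 normalized counts. MT-ND6, the member encoded on the light strand, went down from 1729, 1790 and 1737 to 606, 554 and 450. The libraries did not record strand, so reads of MT-ND6 and of transcripts antisense to it cannot be told apart.

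**Figure D3:**
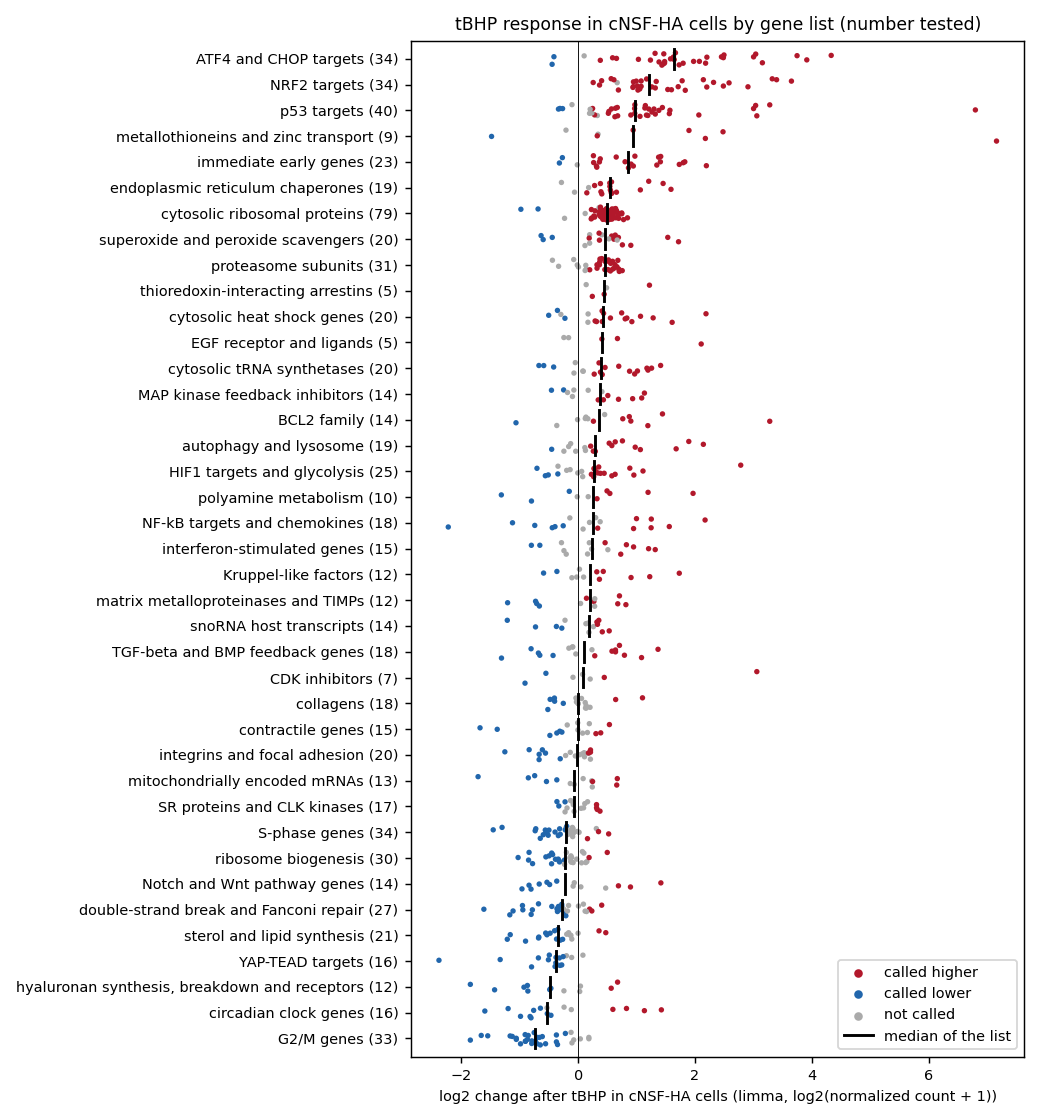
log2 change after tBHP in cNSF-HA cells for each tested member of each gene list (points, red if called higher, blue if called lower, grey if not called) with the median of the list (black bar) and the number tested in parentheses. The ATF4 and CHOP list has the highest median, 1.64, and the G2/M list the lowest, -0.73.

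The genes that rose and the genes that fell differed in sequence features that had no part in choosing them. The genes that rose had a median transcript GC content of 53.6%, a median transcript length of 3058 bases and a median gene span of 19921 bases, against 41.8%, 4616 and 57312 for the genes that fell and 47.9%, 3665 and 32038 for all genes tested. With genes split into 5 equal bins, the median log2 change went from -0.43 through -0.20, 0.01 and 0.19 to 0.30 from the lowest to the highest GC content, and from the shortest to the longest transcripts from 0.21 through 0.11, 0.00 and -0.08 to -0.24. Of genes in the bin of shortest span 35.6% rose and 11.4% fell, and of those in the longest 14.4% rose and 43.7% fell. Reference values were at hand for 12802 genes (93.5%). The same kind of tilt was seen between replicates of cNSF-HA + tBHP, as given above, and how far it sets the tilt between the groups was not tested. With the trends removed from every library 70.0% of the calls were kept in the same direction and 444 of the called genes had the opposite sign. Reference values were at hand for 3178 of the 3285 genes that rose and 3524 of the 3662 that fell. The others could not be tested in this way and count here as not kept. The medians of the NRF2, p53 and ATF4 and CHOP lists were then 1.27, 0.98 and 1.55, and that of the G2/M list -0.58. Beside the counts given above, others moved by over 1.5 times. The falls were then 27 of 34 S-phase genes, 23 of 30 ribosome biogenesis genes, 5 of 20 tRNA synthetases and 5 of 10 polyamine genes. They were 2 in the BCL2 family and 2 among epithelial markers, and 1 each among p53 targets, the ATF4 and CHOP list, chaperones of the endoplasmic reticulum, Kruppel-like factors and the EGF receptor and its ligands. The rises were then 3 of 12 metalloproteinases and inhibitors, 5 of 15 fibroblast markers, 0 of 3 endothelial markers and 1 of 21 sterol and lipid synthesis genes.

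**Figure D4:**
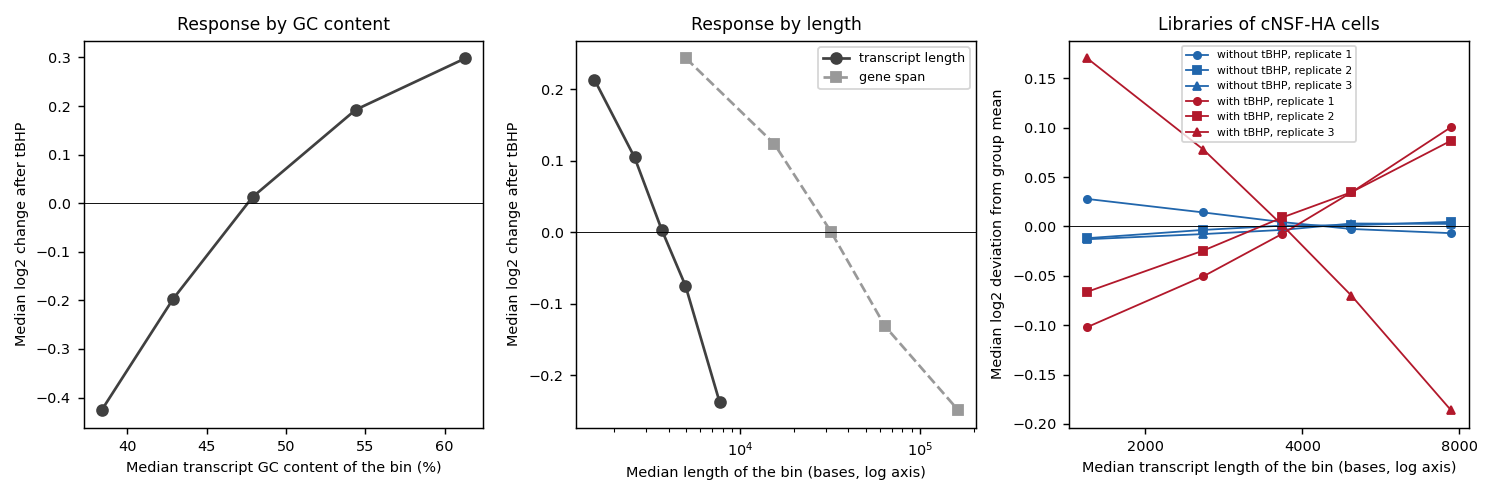
Left and middle, median log2 change after tBHP in cNSF-HA cells by bin of transcript GC content (5 equal bins), transcript length (circles) and gene span (squares), with lengths on a log axis. Right, median deviation of each library from its group mean by bin of transcript length, where replicate 3 of cNSF-HA + tBHP runs from 0.17 to -0.19 and the 3 cNSF-HA libraries stay close to 0.

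The response of cNSF-HA cells was then set beside those of PBS and fNSF-HA cells, which share no library with it. In PBS cells 3317 genes rose (24.2% of those tested) and 3678 fell (26.9%), 51.1% in all, and after fNSF-HA 2631 (19.2%) and 3102 (22.7%), 41.9% in all. Of the genes higher in cNSF-HA cells 2660 were also higher in PBS cells, 81.0% of the former and 80.2% of the latter, and of the lower genes 3062 (83.6% and 83.3%). With fNSF-HA cells the shared calls were 2163 higher (65.8% and 82.2%) and 2625 lower (71.7% and 84.6%). The changes of all genes tested correlated across genes with Pearson's r of 0.90 with PBS and 0.87 with fNSF-HA, a description over genes that are not independent. The median SD in the tBHP groups was 0.155 with PBS and 0.221 with fNSF-HA. Transcript GC content and length accounted for 18.4% and 54.3% of the variance within them. The lower count after fNSF-HA depended on replicate 2 of fNSF-HA + tBHP, without which 3340 genes rose and 3590 fell. With the trends removed from every library, 7145 genes were called after fNSF-HA, 7197 after cNSF-HA and 7334 with PBS.

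**Figure D5:**
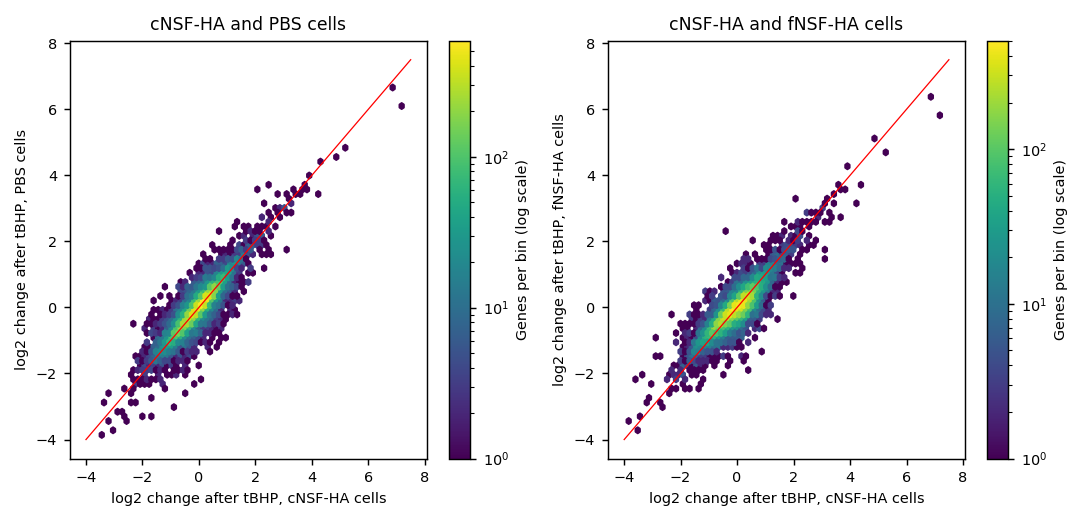
log2 change after tBHP in cNSF-HA cells (horizontal) against that in PBS cells (left) and fNSF-HA cells (right) for 13686 genes, coloured by the number of genes per bin on a log scale, with the line of equal change in red. Pearson's r across genes was 0.90 and 0.87.

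The difference between responses was tested directly. By limma 0 genes had a response in cNSF-HA cells that differed from that in PBS cells at an adjusted p under 0.05, and 0 differed from that in fNSF-HA cells, with smallest adjusted p-values of 0.999 and 0.710. edgeR and DESeq2 on the recovered reads also called 0 genes in both tests. At an unadjusted p under 0.05 there were 555 (4.06%) and 533 (3.89%) genes, and the median SE of such a difference was 0.18 on the log2 scale. When limma weighted libraries by their estimated quality it called 240 genes against PBS, 145 with a higher and 95 with a lower response in cNSF-HA cells. The genes with the smallest p-values and a mean of at least 100 against PBS were PFN1P1, DNAJC15, UQCRB, SNRPG and NUP35. UQCRB, a subunit gene of respiratory complex III, changed by 0.27 in cNSF-HA cells and -0.12 in PBS cells, a difference of 0.40 ± 0.10 (unadjusted p = 0.000989, limma adjusted p = 0.999). Against fNSF-HA they were DKK1, LUM, DLX2, CHCHD6 and ZNF446. DKK1, a secreted Wnt inhibitor gene, changed by -0.54 after cNSF-HA and -0.84 after fNSF-HA, a difference of 0.30 ± 0.08 (unadjusted p = 0.000819, limma adjusted p = 0.710), and LUM by -1.18 and -0.67.

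Medians of the gene lists were set side by side for the 3 pre-incubations. The NRF2 list stood at 1.21 in cells given cNSF-HA, 1.29 with PBS and 1.32 with fNSF-HA, the p53 list at 0.97, 0.93 and 0.96, and the ATF4 and CHOP list at 1.64, 1.68 and 1.51. The G2/M list stood at -0.73, -0.75 and -0.70. Other lists were further apart, at 0.86, 0.81 and 0.48 for immediate early genes, 0.46, 0.36 and 0.16 for scavengers and 0.25, 0.15 and -0.09 for NF-kB targets and chemokines. With the trends with GC content and length removed, their cNSF-HA medians were 0.45, 0.13 and -0.03. Those of the other pre-incubations were not taken with the trends removed. Of their 23, 20 and 18 members 2, 2 and 1 had an unadjusted p (limma) under 0.05 for the difference from PBS. For the difference from fNSF-HA it was 1, 0 and 1. Ribosomal proteins stood at 0.49, 0.36 and 0.32, with 74, 56 and 50 of 79 called higher where 24%, 24.2% and 19.2% of all genes were, and the 74 was 64 without replicate 3 of cNSF-HA + tBHP. Of their members 5 and 4 had an unadjusted p under 0.05 for the difference from PBS and from fNSF-HA, where 4.06% and 3.89% of all genes did. For the hyaluronan list the medians were -0.48, -0.51 and -0.43, and 0 members had an unadjusted p under 0.05 for either difference.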

How the data were processed

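The authors sequenced polyadenylated RNA of 18 IMR90 samples, 3 per group, in single-end Illumina reads with a library kit that does not mark strand. Per the labels, the submitters' processing notes name Trimmomatic 0.32, STAR 2.5.2b, featureCounts of Subread 1.5.0-p3, DESeq2 and build GRCh38.p7. The deposited values are gene counts divided by size factors by the authors, so they are a depth-scaled signal, called normalized counts here. The deposited table also holds p-value, q-value and ranking score columns of the authors' own test, which were not used.

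Dividing by what 1 read was worth in its library gave a whole number, within 0.01, for 100% of values, so reads were recovered (20261103 to 26287660 per library). Genes with a mean of at least 10 were tested with limma 3.58.1 (R 4.3.3) on log2(value + 1), with the trend option, 1 coefficient per group over all 18 libraries and Benjamini-Hochberg adjustment. Fold changes on this scale understate the change of low genes. edgeR 4.0.16 and DESeq2 1.42.0 were run on the recovered reads. On simulated counts for this comparison with 200 of 13686 genes changed by a log2 of 1, limma called 87.5% of them, with 4.89% false among its calls. The simulation used the same spread setting for all genes and groups and no trend with GC content or length. It also changed far fewer genes than were called here. These rates therefore do not give the error rate of the comparison itself.

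Gene lists are described by counts and medians, with no set test. The members and lists were chosen with earlier results of these data known. Genes were named by rule: the 15 largest rises and falls among called genes with a mean of at least 100 and no overlap of groups, up to 4 called and 2 uncalled members per list, the 5 most abundant called genes, the hyaluronan list, and the 5 smallest p-values of each difference of responses. MDM2, CHAC1, ASNS, SLC3A2, GCLM, HSPA8, SOD2, CALR, HSP90B1, PLK1, BUB1B, PCNA, IL6, TNFAIP3 and the other named list members outside that rule were chosen after their values were seen. Some genes that the rule names are not reported here. Transcript GC content and length came from GENCODE 29 by gene name, and their trends were removed per library with splines of 5 degrees of freedom. The study describes its replicates as biological, and whether they were separate cultures is not stated, so p-values measure the spread between these samples. The labels do not say whether replicate numbers pair the samples, and the main test took them as unpaired.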

Additional observations from a re-analysis of the deposited data

How the results depend on the processing

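Under the alternatives run, the count of genes called in cNSF-HA cells lay within 1.5 times its value of 6947 and stayed divided between both directions. Leaving out each of the 6 libraries in turn gave 5921 to 6563 genes, 2750 to 3057 higher and 3171 to 3506 lower, and kept 83.2 to 90.2% of the calls in the same direction. Library quality weights moved the count of genes that rose to 4946 after cNSF-HA and 1597 after fNSF-HA, and called 240 genes (145 higher, 95 lower) for the difference from PBS. The cause was not tested. edgeR gave 3940 higher and 3253 lower genes, and 54.8% of its calls were higher against 47.3% by limma. With the replicate number as a block (replicate block) 7176 genes were called. The correlations of same-numbered libraries with and without tBHP were -0.037, 0.045 and 0.005 for cNSF-HA. They were 0.087, 0.026 and 0.069 for PBS and 0.015, 0.104 and 0.031 for fNSF-HA. Whether same-numbered libraries were handled together is not stated. Of the 151 genes named, 8 values turned sign, among them CD44 at -0.28 with quantile normalization, COL6A3 at 0.14 with library quality weights and at -0.12 to 0.19 without single libraries, and, after removal of the trends with GC content and length, CHCHD6 at -0.078, COL1A1 at -0.18, DNAJC15 at 0.42, FN1 at 0.26 and PTTG1 at -0.17. The replicate numbers changed 1 call among the genes named, which was gained. At 3 libraries per group and a median SE of 0.13 for a response and 0.18 for a difference of responses, small differences were not detectable.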
